A study of Homo sapiens with 8 samples.

Results

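The genes described here are 33 of the 57992 genes in the count table: the transcription factor ATF4 and genes known as its targets or as parts of the supply of amino acids to translation. They were taken by gene symbol from a list of 7 stress response regulators, 6 enzymes of amino acid and one-carbon metabolism, 7 amino acid transporters, 12 cytosolic tRNA synthetases and the lipoprotein receptor VLDLR. Each symbol matched 1 row, and the rows of all 33 genes passed the filter on low counts. The study examined human acute myeloid leukaemia (AML) lines under a disturbance of deoxynucleotide pools. Its 4 groups were U937 cells in 10 mM dG, a compound named only so in the labels, U937 cells in the PBS vehicle, KG1A cells in 10 mM dG and KG1A cells in PBS, with 2 libraries each. U937 is a line of monoblast character and KG1A a line of immature CD34-positive cells, both grown in RPMI medium with dialyzed serum. No treatment time or genotype was found in the labels.

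ATF4 is the main effector of the integrated stress response. Kinases that sense amino acid shortage, misfolded protein in the endoplasmic reticulum, double-stranded RNA or lack of haem phosphorylate the translation factor eIF2, which lowers protein synthesis in general but raises translation of the ATF4 mRNA. ATF4 then switches on genes for amino acid synthesis, uptake and charging onto tRNA, and regulators that shape or end the response. Because much of this control is on translation, the level of ATF4 mRNA is not a measure of ATF4 protein, and only mRNA was measured here.

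Library totals lay between 21053724 and 31135338 counts, deep enough that 32 of the 33 genes had at least 24 counts in every library. The exception was VLDLR, which had 1 and 0 reads in the KG1A dG libraries and 0 and 2 in the KG1A PBS libraries. It passed the filter only through U937 and is left out of the KG1A counts and of the difference between lines, which cover 32 genes. The summed level of 3 markers of KG1A (CD34, ITGA2B and GATA2) was 1835 to 1868 CPM (read counts scaled for library size) in KG1A dG and 1310 to 1316 CPM in KG1A PBS, and at most 2.62 CPM in any U937 library. That of 5 granule genes listed as markers of U937 (ELANE, MPO, AZU1, PRTN3 and CTSG) was 1633 to 1690 CPM in U937 dG and 948 to 951 CPM in U937 PBS, and at most 1.63 CPM in any KG1A library. The 5 did not move together: CTSG had 1147 and 1093 CPM in U937 dG against 499 and 498 CPM in U937 PBS, PRTN3 had 99.8 and 93.8 CPM in U937 dG against 203 and 191 CPM in U937 PBS, and MPO had at most 5 reads in any library. Of markers of other cell types, erythroid ones summed to at most 0.0485 CPM and those of fibroblasts and epithelial cells to at most 4.61 CPM in any library. Lymphoid ones summed to 5.24 to 6.51 CPM in U937 dG and 7.87 to 8.13 CPM in U937 PBS, and to 122 to 125 CPM in KG1A dG and 105 to 107 CPM in KG1A PBS. Mitochondrially encoded genes took 8.18% and 7.93% of counts in U937 dG against 9.76% and 9.83% in U937 PBS, and 8.01% and 8.30% in KG1A dG against 9.12% and 9.19% in KG1A PBS. This share moved with the treatment in both lines, and its part in the results below was not tested. In bulk libraries a change in the number of cells of a kind and a change in RNA per cell cannot be told apart.

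Per kilobase of exon, the 33 genes spanned wide ranges of level (the authors' deposited RPKM, read counts scaled by exon length and library size). In U937 dG the highest were the glycyl-tRNA synthetase GARS at 110.3 ± 3.4 RPKM (mean ± SD, n = 2) and the asparaginyl-tRNA synthetase NARS at 103 ± 2.8 RPKM, followed by AARS at 101 ± 1.9 RPKM, which was below GARS by more than the spread and within the spread of NARS. In U937 PBS the glutamyl-prolyl-tRNA synthetase EPRS led with 144 ± 3.6 RPKM, above GARS with 112 ± 2.0 RPKM by more than the spread. In KG1A dG the glutamine transporter SLC1A5 had 167 ± 7.5 RPKM and the serine synthesis enzyme PSAT1 160 ± 1.9 RPKM, which did not differ beyond their spread. In KG1A PBS SLC1A5 had 126 ± 3.5 RPKM and PSAT1 109.6 ± 2.2 RPKM. ATF4 itself stood among the 5 highest in 3 of the 4 groups, at 88.9 ± 1.4 RPKM in U937 dG, 62.9 ± 1.3 RPKM in U937 PBS, 107 ± 4.8 RPKM in KG1A dG and 101 ± 2.4 RPKM in KG1A PBS. Several genes differed far more between the lines than with treatment. PHGDH, the first enzyme of serine synthesis, had 51.9 RPKM in U937 PBS and 1.31 RPKM in KG1A PBS, and CHAC1, which degrades glutathione, had 0.626 RPKM in U937 PBS and 9.15 RPKM in KG1A PBS.

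**Figure D1:**
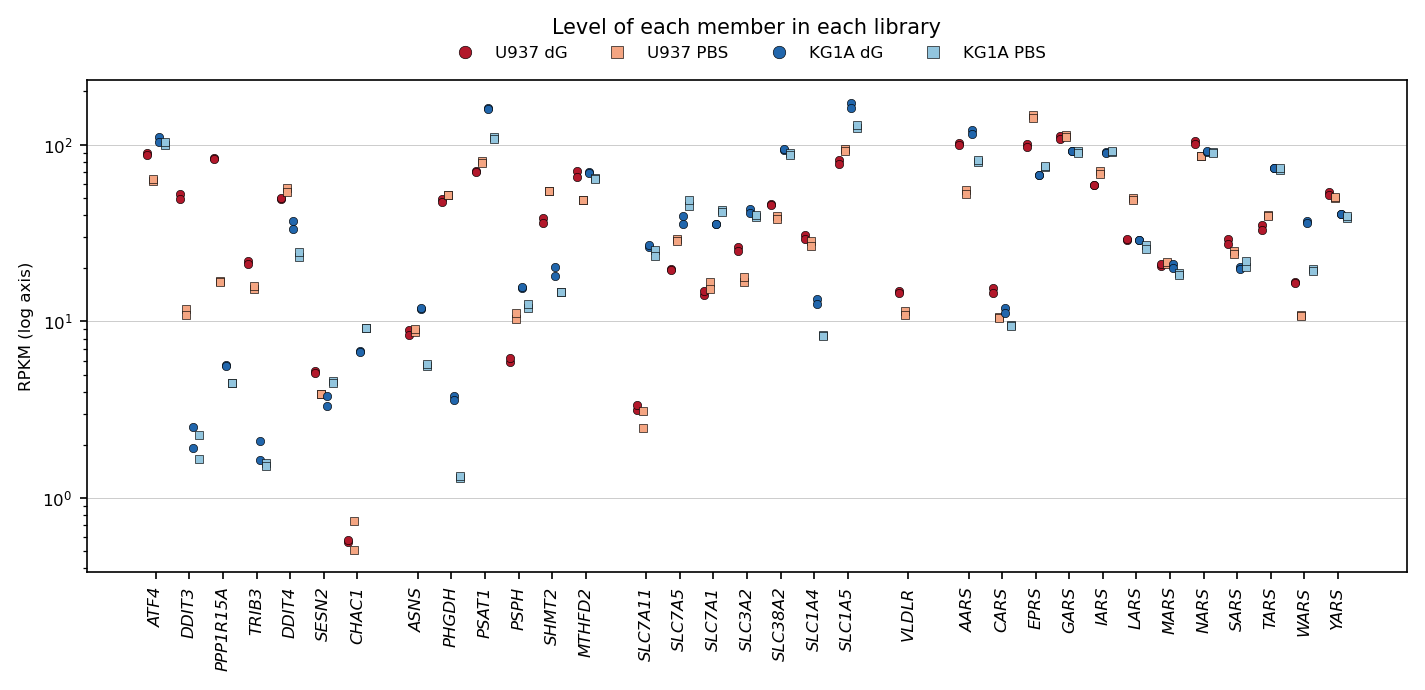
Level of each of the 33 genes in RPKM (log axis) in each library of the 4 groups, grouped by role. Levels between genes differ by orders of magnitude, and PHGDH and the stress regulators PPP1R15A and DDIT3 lie higher in U937 than in KG1A. VLDLR, at or near 0 in KG1A, has no KG1A points.

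In U937, dG moved these genes in both directions. The stress regulators DDIT3 and PPP1R15A rose more than 4-fold, the alanyl-tRNA synthetase AARS rose 1.81-fold, and most serine and one-carbon enzymes fell. Of the 33 genes, 14 were higher and 14 lower in dG at an adjusted p under 0.05, and 5 did not pass the test. Of all 18314 genes tested in U937, 32.4% were higher and 31.5% lower, 64.0% in all. Among the 9487 genes with a mean of at least 10 CPM, 42.7% were higher and 39.9% lower, against 42.4% in either direction among the 33, so the counts lay at the background of expressed genes. The median log2 fold change was 0.01 over the 33 genes and 0.00 over all genes tested.

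In KG1A, the same treatment went mainly one way. The serine synthesis enzyme PHGDH rose 2.94-fold, the asparagine synthetase ASNS rose by 1.12 on the log2 scale, and all 6 enzymes of the list rose. Of the 32 genes, 24 were higher, 5 lower and 3 did not pass the test. Of all genes tested in KG1A, 29.6% were higher and 19.6% lower, 49.1% in all. Among the 9456 genes with a mean of at least 10 CPM, 40% were higher and 29.5% lower, against 75.0% and 15.6% of the 32. The median log2 fold change was 0.19 over the 32 genes and 0.04 over all genes tested. The count of genes called higher fell to 15 when the deposited RPKM were tested with a pseudocount of 0.1. It was 18 without either U937 dG library, where the common scaling moved the median KG1A log2 fold change over all genes by -0.04.

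These calls come from edgeR's quasi-likelihood test on the counts with Benjamini-Hochberg adjustment over all genes tested, as does every adjusted p given here. Log2 fold changes are given ± a standard error derived from the F statistic of that test (n = 2 libraries a group). The test draws much of its estimate of spread from other genes (median prior degrees of freedom 31, against 4 residual). Nothing in the labels says that replicates came from separate cultures, so a p-value here reflects the spread among these libraries alone, which may be technical.

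In both lines, 10 genes were called higher in dG (ATF4, PPP1R15A, TRIB3, MTHFD2, SLC3A2, SLC38A2, AARS, CARS, NARS and WARS). Another 10 were lower in U937 and higher in KG1A (DDIT4, PHGDH, PSAT1, PSPH, SHMT2, SLC1A5, GARS, LARS, MARS and TARS). SLC7A5, SLC7A1 and EPRS were lower in both, and SESN2 was higher in U937 and lower in KG1A. The share of all genes tested with each joint pattern was not computed, so these patterns are a description alone. Some rest on calls lost under other settings, among them GARS and MARS in U937 and GARS and TARS in KG1A. The difference between the dG effects, U937 minus KG1A, was itself tested: 8 of the 32 genes had a higher effect in U937, 17 a lower one and 7 did not pass the test. Over all genes tested, 17.6% had a higher and 26.4% a lower effect in U937, 44.1% in all. The share among genes with a mean of at least 10 CPM was not computed for this difference. The median difference was -0.14 over the 32 genes and -0.10 over all genes tested. All but 3 genes in U937 (CHAC1, SLC7A11 and YARS) and all but 3 in KG1A (DDIT3, SARS and VLDLR) had dG libraries that did not overlap the PBS libraries. Over all genes tested, libraries did not overlap with dG above for 39.2% in U937 and 40.6% in KG1A, and with dG below for 39.8% in U937 and 29.6% in KG1A.

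**Figure D2:**
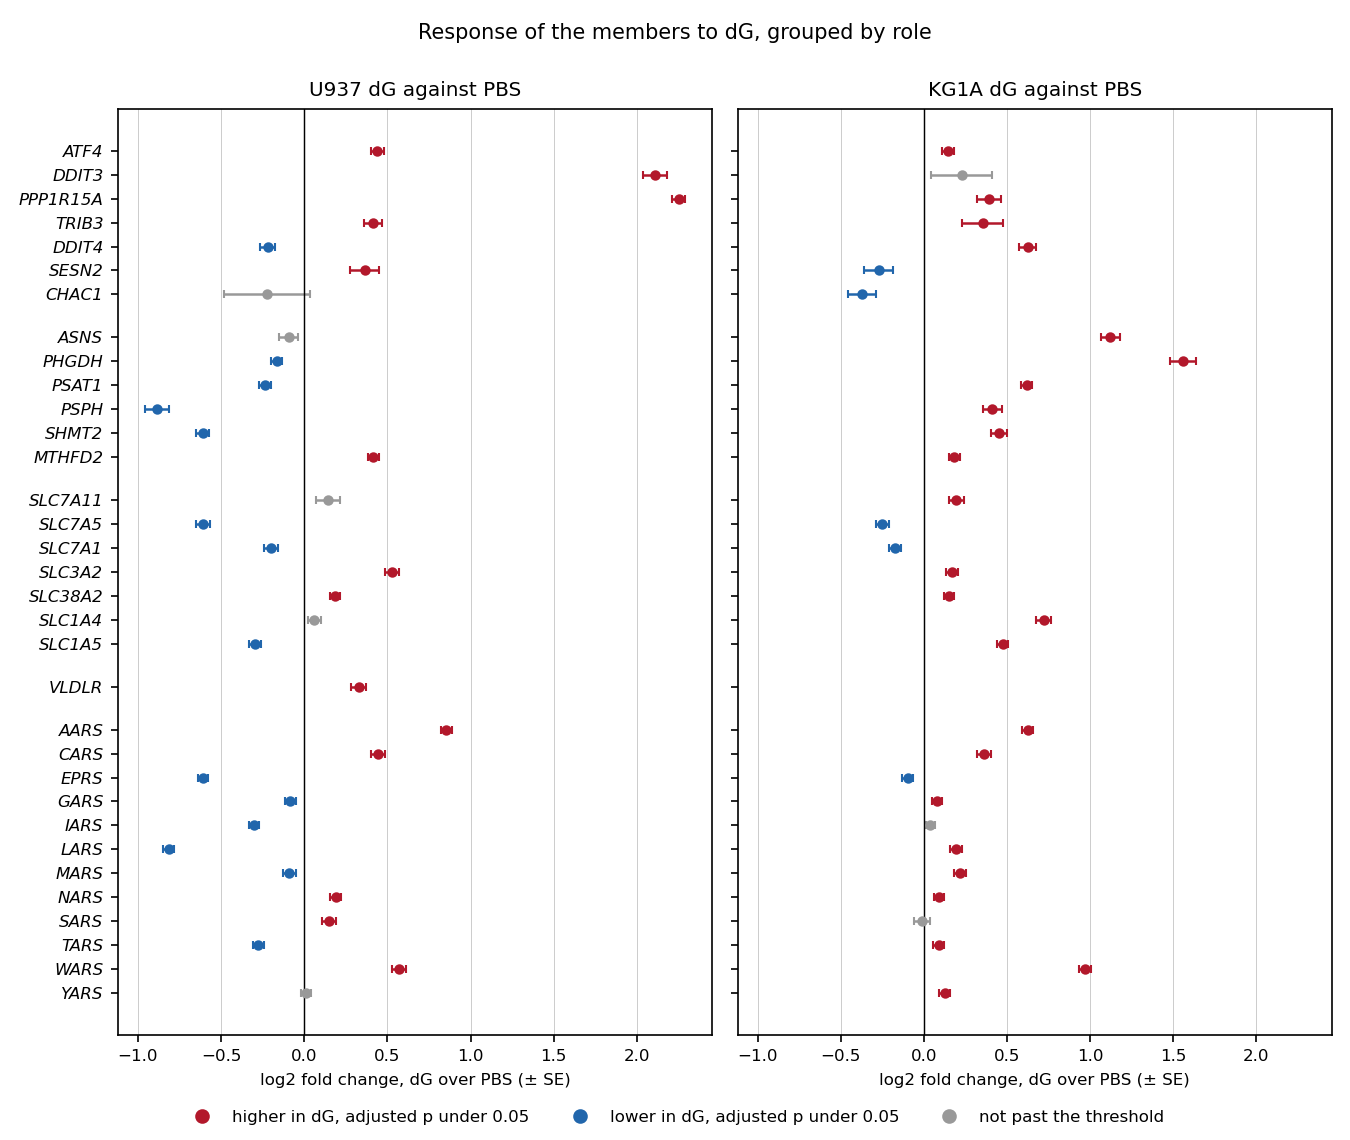
Log2 fold change of each gene, dG over PBS, in U937 and in KG1A, with standard errors and grouped by role (VLDLR has no KG1A value). DDIT3 (2.11) and PPP1R15A (2.25) lie far to the right in U937, against 0.23 and 0.39 in KG1A, while ASNS, PHGDH, PSAT1, PSPH and SHMT2 lie left of 0 in U937 and right of it in KG1A.

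Among the stress response regulators, U937 had 5 of 7 higher and 1 lower, at a median log2 fold change of 0.41, and KG1A had 4 of 7 higher and 2 lower, at a median of 0.23. ATF4 (ENSG00000128272, chromosome 22, 39519695 to 39522685 in GRCh38) had 218 and 217 CPM in the U937 dG libraries against 157 and 164 CPM in the U937 PBS libraries. In KG1A it had 285 and 269 CPM in dG against 247 and 254 CPM in PBS. Both dG libraries lay above both PBS libraries in either line, but the gap was small in KG1A. The log2 fold change was 0.44 ± 0.04 in U937 (adjusted p = 5.54e-13) and 0.15 ± 0.04 in KG1A (adjusted p = 0.000711), and the 2 effects differed by 0.29 ± 0.05 (adjusted p = 8.77e-06). The KG1A call was lost under several settings, with an adjusted p of 0.051 without KG1A dG replicate 1, of 0.085 and 0.0847 without U937 dG replicate 1 or 2, and of 0.158 on RPKM with a pseudocount of 0.1. Its copies ATF4P3 and ATF4P4 held 100 to 234 and 146 to 344 counts a library beside 4114 to 8033 of ATF4.

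DDIT3 encodes CHOP, a transcription factor that ATF4 induces and that is known for its role in cell death under endoplasmic reticulum stress (ENSG00000175197, chromosome 12, 57516588 to 57520517). It had 64.6 and 61.1 CPM in U937 dG against 15.1 and 13.98 CPM in U937 PBS. In KG1A it was low throughout, with 3.30 and 2.50 CPM in dG against 2.08 and 2.84 CPM in PBS. The U937 libraries stood well apart and the KG1A libraries overlapped. The log2 fold change was 2.11 ± 0.07 in U937 (adjusted p = 3.42e-24) and 0.23 ± 0.18 in KG1A (adjusted p = 0.33), a difference of 1.88 ± 0.20 (adjusted p = 8.26e-10). DDIT3 shares 355 of its 1307 exon bases with the opposite strand of MARS, and the labels do not say whether counting used strand. MARS, the methionyl-tRNA synthetase, had 141 and 146 CPM in U937 dG against 149.96 and 155 CPM in U937 PBS, and was not higher in dG.

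PPP1R15A encodes GADD34, the stress-induced subunit that directs a phosphatase to eIF2 and so restores translation (ENSG00000087074, chromosome 19, 48872392 to 48876057). It had 252.6 and 249.996 CPM in U937 dG against 53.0 and 52.6 CPM in U937 PBS. In KG1A it had 17.9 and 17.8 CPM in dG against 13.6 and 13.6 CPM in PBS. Replicates were nearly equal in every group and the groups did not overlap. The log2 fold change was 2.25 ± 0.04 in U937 (adjusted p = 1.05e-32) and 0.39 ± 0.07 in KG1A (adjusted p = 1.47e-05), a difference of 1.86 ± 0.08 (adjusted p = 7.62e-20). PPP1R15A and DDIT3 were the 2 genes of the 33 that rose at least 2-fold in U937, where 9.71% of all genes tested did so. No gene of the 33 fell 2-fold in U937, against 7.74% of all genes tested. In KG1A, PHGDH and ASNS rose at least 2-fold, as did 5.64% of all genes tested, and no gene of the 32 fell 2-fold, against 1.15%.

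The pseudokinase TRIB3, a feedback inhibitor of ATF4 and CHOP, rose by 0.41 ± 0.05 in U937 and by 0.35 ± 0.12 in KG1A, and the difference of 0.06 between these effects did not pass the test (adjusted p = 0.79). Its KG1A level was only 5.09 to 7.39 CPM, and the KG1A call was lost without KG1A dG replicate 1 (adjusted p = 0.442), without KG1A PBS replicate 2 (0.11) or without U937 dG replicate 1 or 2 (0.0592 and 0.0584). DDIT4 and SESN2, both inhibitors of the growth kinase complex mTORC1, moved in opposite directions to each other in either line. DDIT4 had 98.2 and 101 CPM in U937 dG against 118 and 114 CPM in U937 PBS, and 77.9 and 71.0 CPM in KG1A dG against 46.9 and 49.6 CPM in KG1A PBS. Its log2 fold change was -0.22 ± 0.04 in U937 and 0.62 ± 0.05 in KG1A, a difference of -0.84 ± 0.07 (adjusted p = 3.73e-13). SESN2 had 17.6 and 17.3 CPM in U937 dG against 13.5 and 13.7 CPM in U937 PBS, and 13.5 and 11.9 CPM in KG1A dG against 15.6 and 15.1 CPM in KG1A PBS. It rose by 0.36 ± 0.09 in U937 and fell by 0.27 on the log2 scale in KG1A, a difference of 0.63 ± 0.12 (adjusted p = 3.82e-05). The KG1A fall of SESN2 was lost without KG1A dG replicate 2 (adjusted p = 0.145), and DESeq2 in place of edgeR called neither it nor the U937 fall of DDIT4 (adjusted p = 0.0846 and 0.0762). CHAC1 had 14.3 and 14.3 CPM in KG1A dG against 18.6 and 18.4 CPM in KG1A PBS, a log2 fold change of -0.37 ± 0.08 (adjusted p = 0.000343, and 0.0537 with DESeq2). In U937 it lay near 1 CPM in every library and the test was not passed (adjusted p = 0.472).

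**Figure D3:**
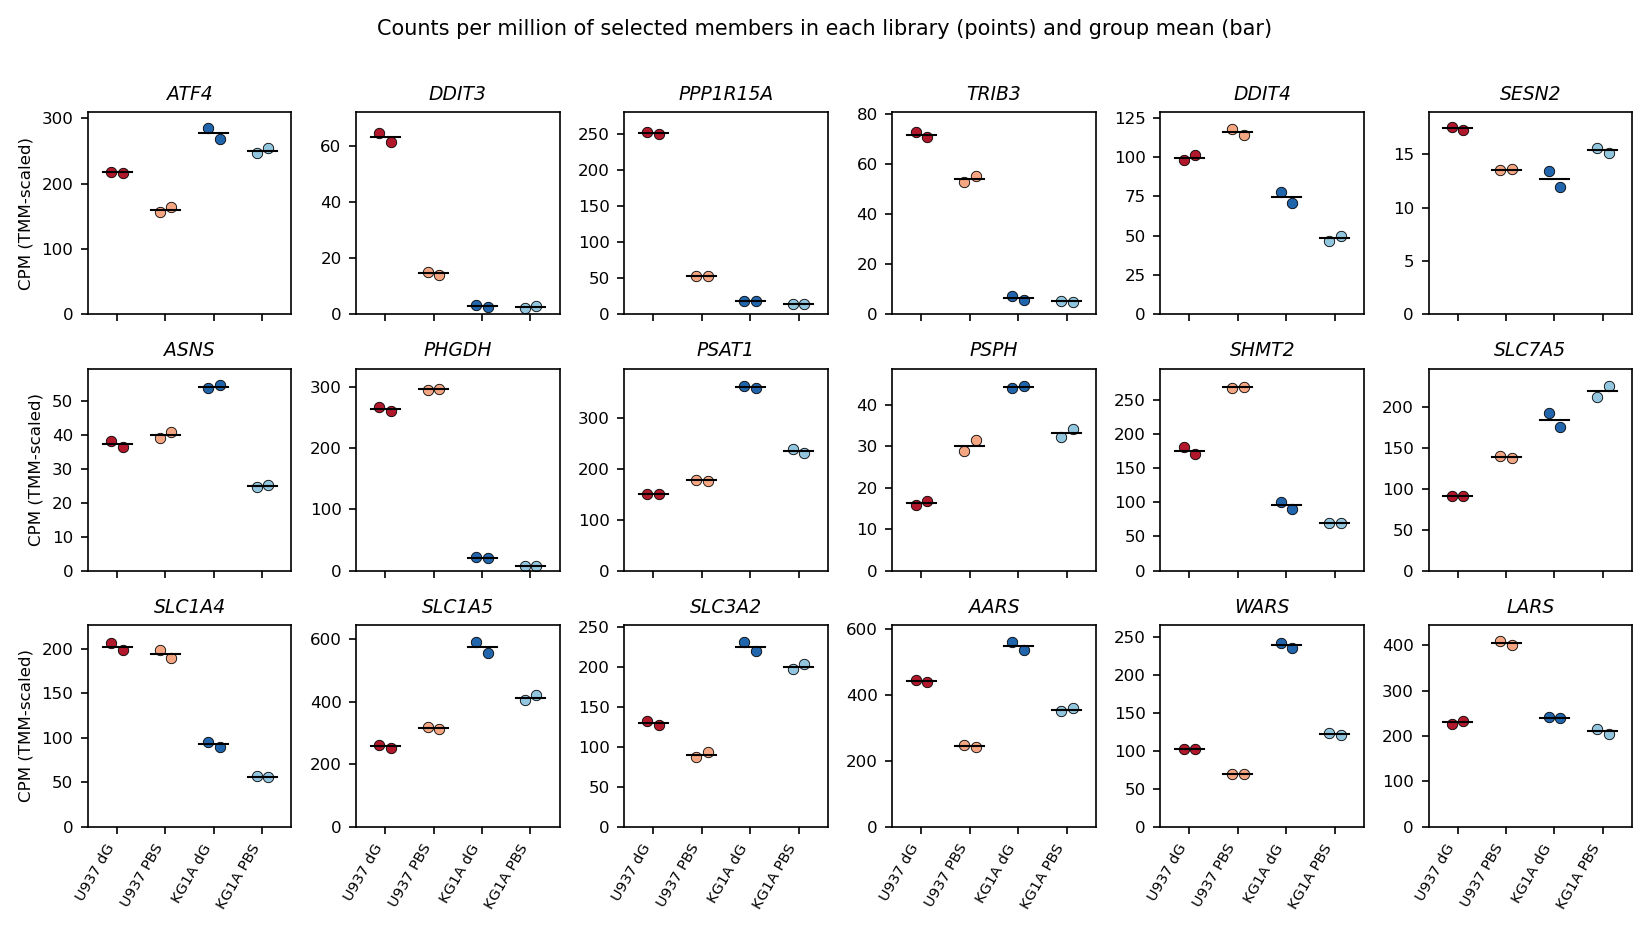
CPM of selected genes in each library (points) with the group mean (bar), dG left of PBS in each line, each panel on its own axis from 0. The U937 dG points of PPP1R15A lie at 252.6 and 249.996 CPM against 53.0 and 52.6 CPM in U937 PBS, and the KG1A dG points of ASNS at 53.8 and 54.7 CPM against 24.6 and 25.2 CPM in KG1A PBS.

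The 6 enzymes of amino acid and one-carbon metabolism had the largest median difference between the lines of the 4 roles with several genes. U937 had 1 higher and 4 lower, at a median log2 fold change of -0.20. KG1A had all 6 higher, at a median of 0.54. Of the differences between lines, 5 of 6 were negative and 1 positive by the test, at a median of -1.14. ASNS, which makes asparagine (ENSG00000070669, chromosome 7, 97852118 to 97872542), had 38.3 and 36.6 CPM in U937 dG against 39.0 and 41.0 CPM in U937 PBS. In KG1A it had 53.8 and 54.7 CPM in dG against 24.6 and 25.2 CPM in PBS. The U937 libraries were nearly level, and both KG1A dG libraries lay far above both PBS libraries. The log2 fold change was -0.09 ± 0.06 in U937 (adjusted p = 0.161, and 0.0113 with library size alone as the scaling) and 1.12 ± 0.06 in KG1A (adjusted p = 1.85e-18), a difference of -1.21 ± 0.08 (adjusted p = 3.63e-15).

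PHGDH, PSAT1 and PSPH make serine from a glycolytic intermediate in consecutive steps. PHGDH (ENSG00000092621, chromosome 1, 119659798 to 119744215) had 267 and 261 CPM in U937 dG against 295 and 297 CPM in U937 PBS, and 21.8 and 20.9 CPM in KG1A dG against 7.19 and 7.32 CPM in KG1A PBS. The dG libraries of KG1A stayed far below every U937 library. VLDLR, at 104 to 133 CPM in U937, had 1 read in the 2 KG1A dG libraries together. The log2 fold change of PHGDH was -0.17 ± 0.03 in U937 and 1.56 ± 0.08 in KG1A, the largest difference of the 32 genes toward KG1A (-1.72 ± 0.08, adjusted p = 7.72e-19). On RPKM with a pseudocount of 1, which weighs on this low level, its KG1A change was 1.02. Its U937 fall was lost without U937 dG replicate 2 (adjusted p = 0.108), with DESeq2 (0.152), with DESeq2 size factors (0.0524) and on RPKM with a pseudocount of 0.1 (0.0523). PSAT1 had 151 and 150.5 CPM in U937 dG against 178 and 177 CPM in U937 PBS, and 364 and 359 CPM in KG1A dG against 239.5 and 232 CPM in KG1A PBS. Its change was -0.24 ± 0.04 in U937 and 0.62 ± 0.03 in KG1A. PSPH had 15.8 and 16.7 CPM in U937 dG against 28.7 and 31.4 CPM in U937 PBS, and 44.1 and 44.5 CPM in KG1A dG against 32.3 and 34.1 CPM in KG1A PBS. Its change was -0.88 ± 0.07 in U937 and 0.41 ± 0.06 in KG1A (difference -1.30 ± 0.09, adjusted p = 2.79e-14). Every one of the 3 thus had its dG libraries below the PBS libraries in U937 and above them in KG1A. Copies known by name drew reads too: PSAT1P3 held 355 to 1329 counts a library beside 3104 to 10250 of PSAT1, and PSPHP1 76 to 216 beside 345 to 1241 of PSPH. How the counting divided such reads adds uncertainty to both genes.

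SHMT2 turns serine into glycine in mitochondria and passes the carbon to folate, and MTHFD2 oxidises that folate unit there. SHMT2 had 180.4 and 171 CPM in U937 dG against 267 and 269 CPM in U937 PBS, and 101 and 89.8 CPM in KG1A dG against 70.1 and 69.6 CPM in KG1A PBS. Its log2 fold change was -0.61 ± 0.04 in U937 and 0.45 ± 0.05 in KG1A (difference -1.06 ± 0.06, adjusted p = 8.16e-17). MTHFD2 was the enzyme that rose in both lines, by 0.42 ± 0.03 in U937 (adjusted p = 2.37e-13) and by 0.18 ± 0.03 in KG1A (adjusted p = 1.65e-05), and its effect was larger in U937 by 0.23 ± 0.05. MTHFD2 also has a copy with reads, MTHFD2P7, at 573 to 1010 counts a library beside 6111 to 9886.

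Among the 7 amino acid transporters, U937 had 2 higher and 3 lower, at a median log2 fold change of 0.06, and KG1A had 5 higher and 2 lower, at a median of 0.17. SLC7A5 carries large neutral amino acids such as leucine and works as a pair with the chain that SLC3A2 encodes. The 2 partners moved apart. SLC7A5 had 91.2 and 90.7 CPM in U937 dG against 139 and 138 CPM in U937 PBS, and 192 and 175 CPM in KG1A dG against 211 and 226 CPM in KG1A PBS. SLC3A2 had 132 and 127 CPM in U937 dG against 86.7 and 93.9 CPM in U937 PBS, and 231 and 220 CPM in KG1A dG against 198 and 203 CPM in KG1A PBS. No library of dG overlapped PBS for either partner. SLC7A5 fell by 0.61 in U937 (adjusted p = 8.87e-15) and by 0.25 in KG1A (adjusted p = 1.44e-06) on the log2 scale, and SLC3A2 rose by 0.53 ± 0.04 in U937 (adjusted p = 1.77e-13) and by 0.17 ± 0.04 in KG1A (adjusted p = 0.000286). On RPKM the KG1A rise of SLC3A2 did not pass the test (adjusted p = 0.129 and 0.136 with pseudocounts of 1 and 0.1).

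SLC7A11, which exchanges cystine for glutamate and also pairs with the SLC3A2 chain, rose by 0.20 ± 0.04 in KG1A, a call lost with DESeq2 (adjusted p = 0.23) and on RPKM (0.275 and 0.363). In U937, where it lay at 24.6 to 31.8 CPM, its change was 0.14 ± 0.07 (adjusted p = 0.0886), and the libraries overlapped. That value varied with the setting: it was 0.23 with DESeq2 size factors (adjusted p = 0.00609) and 0.20 without the filter (0.0047), 0.31 without U937 PBS replicate 1 (adjusted p = 0.00106), 0.26 without U937 dG replicate 1 (0.0184) and -0.0024 without U937 PBS replicate 2. SLC1A4, a carrier of alanine, serine and cysteine, had 207 and 198.9 CPM in U937 dG against 198.5 and 189.9 CPM in U937 PBS, and 95.7 and 90.1 CPM in KG1A dG against 56.9 and 55.9 CPM in KG1A PBS. It rose by 0.72 ± 0.05 in KG1A (adjusted p = 5.32e-16), and its U937 change of 0.06 ± 0.04 passed the test without U937 dG replicate 2, with DESeq2 size factors or with DESeq2, where it was 0.15, and without the filter, where it was 0.12. SLC1A5, the main glutamine carrier of many cancer cells, fell by 0.30 on the log2 scale in U937 and rose by 0.48 ± 0.03 in KG1A, a difference of -0.77 (adjusted p = 5.59e-16). SLC38A2, a carrier of small neutral amino acids that cells raise when these run short, rose in both lines, by 0.19 ± 0.03 in U937 and by 0.15 ± 0.03 in KG1A, the KG1A call being lost without the filter (adjusted p = 0.0541) and on RPKM with a pseudocount of 0.1 (0.053). SLC7A1, which carries arginine and lysine, had 105 and 112 CPM in U937 dG against 129 and 120.1 CPM in U937 PBS, and 283 and 282 CPM in KG1A dG against 323 and 316 CPM in KG1A PBS. It fell by 0.20 in U937 and by 0.17 in KG1A on the log2 scale, and the U937 fall was lost without U937 dG replicate 1 (adjusted p = 0.119) and with DESeq2 (0.0519).

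VLDLR, a lipoprotein receptor whose gene ATF4 is known to induce, had more than 2 reads in a library only in U937. It had 133 and 132 CPM in U937 dG against 108 and 104 CPM in U937 PBS, a log2 fold change of 0.33 ± 0.04 (adjusted p = 4.5e-08).

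The 12 tRNA synthetases, which load amino acids onto their tRNAs, split in U937 and mostly rose a little in KG1A. U937 had 5 higher and 6 lower, at a median log2 fold change of -0.04, and KG1A had 9 higher and 1 lower, at a median of 0.11. AARS, the alanyl-tRNA synthetase (ENSG00000090861, chromosome 16, 70252295 to 70289543), had 446 and 440.4 CPM in U937 dG against 249 and 241 CPM in U937 PBS, and 561 and 536 CPM in KG1A dG against 352 and 360 CPM in KG1A PBS. WARS, the tryptophanyl-tRNA synthetase, which interferon also induces, had 103 and 103 CPM in U937 dG against 69.3 and 69.5 CPM in U937 PBS, and 242 and 236 CPM in KG1A dG against 124 and 121 CPM in KG1A PBS. CARS, the cysteinyl-tRNA synthetase, had 149 and 142 CPM in U937 dG against 106 and 108 CPM in U937 PBS, and 123 and 116 CPM in KG1A dG against 94.2 and 92.6 CPM in KG1A PBS. For these 3 genes each dG library lay above each PBS library by more than the replicates differed. AARS rose by 0.85 ± 0.03 in U937 and 0.62 ± 0.03 in KG1A, WARS by 0.57 ± 0.04 in U937 and 0.97 ± 0.04 in KG1A, and CARS by 0.44 ± 0.04 in U937 and 0.36 ± 0.04 in KG1A. The AARS effect was larger in U937 (difference 0.23, adjusted p = 8.62e-05) and the WARS effect larger in KG1A (difference -0.40, adjusted p = 1.53e-07).

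Among these 12 synthetases, the largest falls in U937 were those of LARS, EPRS and IARS, the synthetases for leucine, for glutamate and proline, and for isoleucine. LARS had 226 and 234 CPM in U937 dG against 409 and 401 CPM in U937 PBS, and 241 and 240.5 CPM in KG1A dG against 217 and 205 CPM in KG1A PBS. EPRS had 529 and 516 CPM in U937 dG against 805 and 788 CPM in U937 PBS, and 378 and 377 CPM in KG1A dG against 403 and 404 CPM in KG1A PBS. IARS had 425 and 426 CPM in U937 dG against 532 and 516 CPM in U937 PBS, and 690.1 and 681 CPM in KG1A dG against 663 and 671 CPM in KG1A PBS. All 3 fell in U937, and in KG1A the dG libraries lay above the PBS libraries for LARS and IARS and below them for EPRS. In U937 LARS fell by 0.82, EPRS by 0.61 and IARS by 0.30 on the log2 scale, and in KG1A the log2 fold changes were 0.19 ± 0.03, -0.10 ± 0.03 and 0.04 ± 0.03 in the same order. In KG1A the rise of LARS passed the test (adjusted p = 1.22e-05) and the IARS change did not, and the EPRS fall was lost without KG1A PBS replicate 2 (adjusted p = 0.0527).

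The remaining synthetases changed by at most 0.28 on the log2 scale in U937 and 0.22 in KG1A. In U937 NARS (0.19) and the seryl-tRNA synthetase SARS (0.15) were higher, TARS for threonine (-0.28), MARS (-0.09) and GARS (-0.08) lower, and YARS for tyrosine (0.01) not called. In KG1A MARS (0.22), YARS (0.13), NARS (0.09), TARS (0.09) and GARS (0.08) were higher and SARS (-0.01) not called. Most of these small calls were lost under some settings: in KG1A, GARS, NARS, TARS and YARS were also lost with library size alone, without the filter, on RPKM and with KG1A fitted alone, and in U937 YARS was called higher with DESeq2 size factors (0.10). In U937 GARS was lost without U937 PBS replicate 1 (adjusted p = 0.0738) and without replicate 1 or 2 of U937 dG (0.357 and 1), MARS without U937 PBS replicate 2 (0.14) or U937 dG replicate 1 or 2 (1 and 0.387), and SARS without U937 PBS replicate 2 (0.0766). In KG1A GARS, TARS and NARS were lost without U937 dG replicate 1 (0.774, 0.612 and 0.568) or 2 (0.778, 0.617 and 0.572), as was YARS (0.152 and 0.153). They were lost too without KG1A libraries: GARS without PBS replicate 2 or dG replicate 1 or 2 (0.269, 0.102 and 0.0839), TARS without PBS replicate 1 or dG replicate 1 or 2 (0.151, 0.0748 and 0.0517) and NARS without PBS replicate 2 or dG replicate 2 (0.126 and 0.0896).

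Most of the synthetase genes outside the 33 fell in both lines. Of the 11 other cytosolic synthetases and scaffold proteins, U937 had 0 higher and 10 lower, at a median log2 fold change of -0.87, and KG1A had 0 higher and 8 lower, at a median of -0.38. The valyl-tRNA synthetase VARS had 52.3 and 54.1 CPM in U937 dG against 147 and 149 CPM in U937 PBS, a change of -1.48 ± 0.04, and changed by -1.03 ± 0.05 in KG1A. The scaffold protein gene AIMP2 changed by -1.21 in U937 and by -0.75 in KG1A. Of the 17 mitochondrial synthetases, U937 had 1 higher and 13 lower, at a median of -0.70, and KG1A had 0 higher and 14 lower, at a median of -0.34. In U937 WARS2 changed by -1.75 ± 0.08, and in KG1A WARS2 changed by -0.74 ± 0.08 and VARS2 by -0.64 ± 0.06. No synthetase outside the 33 genes was called higher in KG1A, and HARS2 alone was so in U937, by 0.31 ± 0.07.

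Several cytosolic synthetases are bound in a large complex with 3 scaffold proteins, a division set out after the values were seen and given as a description. Of the 11 genes of that complex (EPRS, IARS, LARS and MARS of the 33, with DARS, KARS, QARS, RARS, AIMP1, AIMP2 and EEF1E1), U937 had 0 higher and 10 lower, and KG1A had 2 higher and 6 lower. Of the 12 free cytosolic synthetase genes, U937 had 5 higher and 6 lower, and KG1A had 7 higher and 3 lower. The 5 that rose in U937 were AARS, CARS, NARS, SARS and WARS, all of the 33. Outside the 33, the 4 free genes had 0 higher and 4 lower in U937, at a median log2 fold change of -1.06. The 7 genes of the complex outside the 33 had 0 higher and 6 lower there, at a median of -0.83. In KG1A these 4 had 0 higher and 3 lower, and these 7 had 0 higher and 5 lower.

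**Figure D4:**
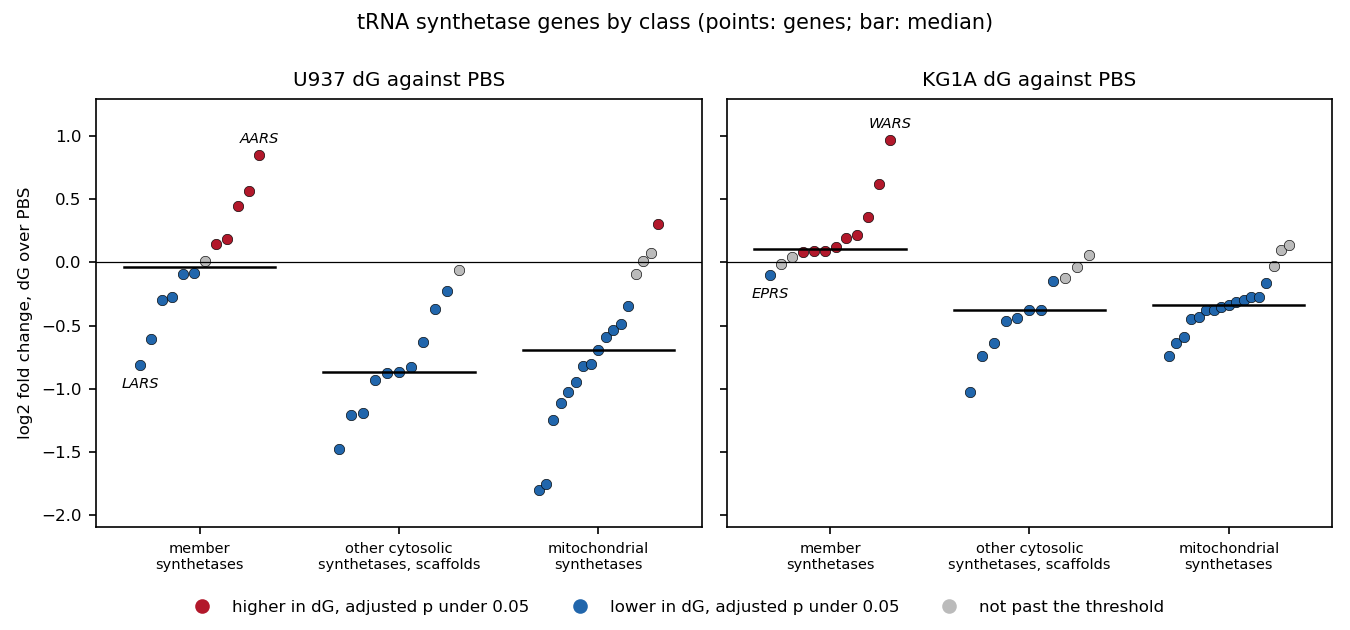
Log2 fold change, dG over PBS, of each synthetase gene (point) in 3 classes, with the class median (bar), in U937 and KG1A. The 12 synthetases of the 33 genes have medians of -0.04 in U937 and 0.11 in KG1A, the other cytosolic genes -0.87 in U937 and -0.38 in KG1A, and the mitochondrial genes -0.70 in U937 and -0.34 in KG1A.

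Upstream of ATF4, a list of 13 genes held the eIF2 kinases, eIF2, its exchange factor eIF2B and the eIF2 phosphatase subunit PPP1R15B. As a whole it showed no common direction. U937 had 6 higher and 5 lower, and KG1A 3 higher and 6 lower. In U937 the kinase genes EIF2AK1 (0.21), EIF2AK2 (0.57), EIF2AK3 (0.49) and EIF2AK4 (0.33) were all called higher. The subunit genes EIF2S1, EIF2S2, EIF2B1, EIF2B2 and EIF2B3 were lower there, EIF2B4 higher, and EIF2S3 and EIF2B5 not called. In KG1A EIF2AK3 was the only kinase gene called higher, EIF2AK1 was lower (-0.08), and EIF2AK2 and EIF2AK4 were not called. PPP1R15B, the constitutive partner of the eIF2 phosphatase, had 294 and 296 CPM in U937 dG against 137 and 137 CPM in U937 PBS, a log2 fold change of 1.11 ± 0.04. EIF2S1, the phosphorylated subunit itself, changed by -0.75 ± 0.04 in U937. In KG1A the endoplasmic reticulum kinase gene EIF2AK3 changed by 0.49 ± 0.05 and the eIF2B subunit gene EIF2B3 by -0.41 ± 0.07.

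Of 27 further ATF4 targets and partners, 24 were tested. U937 had 13 higher and 4 lower, at a median log2 fold change of 0.63, and KG1A had 10 higher and 6 lower, at a median of 0.21. Unlike VLDLR, genes near 0 in a line were kept here, and their uncalled values enter the medians. In U937 PYCR1 and SLC6A9 (2.51 each) had at most 0.0431 CPM in any library, and ALDH1L2 (-1.26) at most 0.319 CPM. In KG1A NUPR1 (-2.30) had at most 0.0342 CPM and GDF15 (3.14) at most 0.0403 CPM. GDF15, a secreted stress hormone, had 2.89 and 3.10 CPM in U937 dG against 0.251 and 0.159 CPM in U937 PBS (3.80 ± 0.33). The stress factor ATF3 had 10.6 and 11.6 CPM in U937 dG against 2.41 and 3.07 CPM in U937 PBS (2.03 ± 0.14). In KG1A ALDH1L2, a mitochondrial folate enzyme, had 20.7 and 20.3 CPM in dG against 6.97 and 7.66 CPM in PBS (1.48 ± 0.09), and STC2, a secreted glycoprotein, changed by 1.40 ± 0.29.

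The sequence that ATF4 and its C/EBP partners are known to bind in amino acid response elements was looked for in the promoters. Stretches are shown for the 6 genes with a match and the largest changes. A match is of sequence alone, and no binding of a factor was measured. The motif TGATGNAA was searched on both strands of windows from 250 bases before to 50 bases after each gene start (RefSeq, GRCh38.p14, in which 28 of the 33 genes have a window). It was found in 13 of those 28 genes (46.4%), against 4.46% of all 27305 genes with a window. By window, it was in 13 of 43 (30.2%) against 3.62% of all 35116 windows. The list was made of genes known as ATF4 targets or for amino acid supply. That choice itself favours a high share, so the comparison is a description alone. The 13 genes were CHAC1, ASNS, SLC7A1, SLC3A2, SLC1A4, SLC1A5, AARS, CARS, GARS, IARS, MARS, NARS and TARS. Each stretch reads 5′ to 3′ on the strand of its gene, with the motif or its reverse complement in capitals.
ASNS, chr7:97872458-97872487, minus strand: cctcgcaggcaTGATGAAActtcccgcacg
AARS, chr16:70289660-70289719, minus strand: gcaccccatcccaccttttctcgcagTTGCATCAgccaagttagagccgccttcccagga
SLC1A4, chr2:64989381-64989410, plus strand: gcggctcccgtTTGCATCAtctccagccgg
SLC3A2, chr11:62881725-62881748, plus strand: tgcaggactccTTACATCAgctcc
SLC1A5, chr19:46784893-46784922, minus strand: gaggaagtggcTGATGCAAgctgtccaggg
CARS, chr11:3057407-3057436, minus strand: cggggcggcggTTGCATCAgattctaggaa

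The motif of ASNS begins 68 bases and that of AARS 187 bases before the RefSeq start used for its window. The stretches of ASNS, SLC1A4, SLC3A2, SLC1A5 and CARS lie inside the annotated gene spans, at starts within the gene. The SLC3A2 gene begins at 62856102, and SLC1A5, on the minus strand, at 46788594, and in both 1 of 3 windows held the match. For ASNS, SLC3A2, SLC1A5 and CARS, a check near the motif met annotated exons. The check ended at the RefSeq start and was not repeated for the shorter stretches printed, and that of SLC1A4 runs past its start. In ASNS and SLC1A5 the motif reads TGATGNAA on the strand of the gene, and in AARS, SLC1A4, SLC3A2 and CARS on the opposite strand. Sequence outside the windows was not searched, so a gene without a match here may still hold a site elsewhere. In U937, of the 13 genes with a match 4 were higher and 6 lower in dG, and of the 15 without one 10 were higher and 5 lower. In KG1A, 10 of the 13 with a match were higher and 2 lower, and 9 of the 14 without one were higher and 3 lower. The E-box CACGTG, which MYC and related factors are known to bind, was in 4 of 28 genes (14.3%: ATF4, SLC7A5, SLC1A5 and IARS), against 8.77% of all genes with a window, and overlapped no TGATGNAA match.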

How the data were processed

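RNA from 8 libraries of established cell lines was sequenced after poly(A) library preparation with a Kapa mRNA kit, per the labels' protocols. The authors deposited whole-number read counts per gene and RPKM for 57992 genes. The submitters' processing notes name bcl2fastq 2.18.0.12, TopHat2, HTSeq 0.11.2 and the build GRCh38 (hg38), without roles or settings. The annotation release and the use of strand: not given in the sources used here. The deposited RPKM equalled counts per kilobase with 1 factor per library (100% of values within 0.1%). No sample column was left unused.

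Counts were tested with edgeR 4.0.16 (glmQLFit and glmQLFTest, two-sided) under R 4.3.3, after filterByExpr left 18314 genes and with TMM factors. One fit held the 8 libraries, with a mean per group and 4 residual degrees of freedom. It gave the dG effect in each line and the U937 effect minus the KG1A effect. Benjamini-Hochberg adjustment ran over all tested genes, at a threshold of 0.05. CPM use TMM-scaled library sizes. The procedure was tested on simulated data in which few genes changed, by the same fold in both lines. That simulation could not test the dependence on scaling or the power for the difference between lines. Between the libraries of a group, chi-square was 1.8 to 2.2 per gene, above counting noise, so none was a repeat deposit. The precision of a level is set by its counts, which are given where low. The p-values rest on 2 libraries a group and on a spread estimated in part from other genes.

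Alternatives were DESeq2 size factors, library size alone, no low-count filter, DESeq2 1.42.0, limma 3.58.1 on log2 RPKM with pseudocounts of 1 and 0.1, a replicate block, each library left out, and each line alone. Values in every library are given for ATF4, DDIT3, up to 6 called genes per direction and line, and the 4 largest called differences per direction. For each further list, up to 2 called genes with the largest change and a mean of at least 1 CPM are named, except for genes not reported here. HARS2, MARS in the account of DDIT3, the complex of synthetases, and the division of the eIF2 list into kinases and subunits were chosen after their values were seen. The symbol CASTOR1 of the further ATF4 targets matched no row, and FGF21 and CBS did not pass the filter. All members and lists were chosen with earlier results of these data known. Overlaps and exons come from GENCODE 29, which held all 33 genes as protein-coding, and promoter windows from RefSeq.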

Additional observations from a re-analysis of the deposited data

Results flagged for a closer look

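For 25 of the 32 genes compared, the dG effect in U937 differed from that in KG1A by the test of the difference itself (edgeR's quasi-likelihood test, adjusted p under 0.05), against 44.1% of all genes tested. Within each line, more of the genes with a mean of at least 10 CPM were called than of all genes. Such a share was not computed for the difference, so the part of expression level in this count was not tested. All values that follow are differences of log2 fold changes, U937 minus KG1A. Among the stress regulators the difference was 1.88 for DDIT3, 1.86 for PPP1R15A, 0.63 for SESN2, 0.29 for ATF4 and -0.84 for DDIT4. Among the enzymes it was -1.72 for PHGDH, -1.30 for PSPH, -1.21 for ASNS, -1.06 for SHMT2, -0.85 for PSAT1 and 0.23 for MTHFD2. The transporters gave -0.77 for SLC1A5, -0.66 for SLC1A4, -0.36 for SLC7A5 and 0.36 for SLC3A2. Among the synthetases it was -1.01 for LARS, -0.51 for EPRS, -0.40 for WARS, -0.37 for TARS, -0.34 for IARS, -0.31 for MARS, -0.16 for GARS, -0.12 for YARS, 0.23 for AARS and 0.16 for SARS.

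Of these 25, 21 stayed past the threshold in the same direction under all 16 alternatives, and SARS, GARS, MARS and YARS did not. The SARS difference did not pass when replicate 2 was left out of KG1A dG (0.14, adjusted p = 0.112), of KG1A PBS (0.092, adjusted p = 0.358) or of U937 PBS (0.12, adjusted p = 0.175), with library size alone (adjusted p = 0.0544) or with the replicate block (0.0635). GARS was lost without U937 dG replicate 1 or 2 (-0.06 and -0.01), with DESeq2 size factors (adjusted p = 0.285), without the filter (0.869), with DESeq2 (0.33) and on RPKM with pseudocounts of 1 and 0.1 (0.528 and 0.535), and MARS without U937 dG replicate 1 (-0.15, adjusted p = 0.0578). YARS was lost without KG1A PBS replicate 1 (-0.10), KG1A dG replicate 2 (-0.11), U937 PBS replicate 2 (-0.10) or U937 dG replicate 1 (-0.01) and turned to 0.03 without U937 dG replicate 2. It was also lost with the replicate block (adjusted p = 0.0716), DESeq2 size factors (0.867) or DESeq2 (0.863), and turned to 0.012 without the filter and 0.011 on RPKM. Without either U937 dG library, CARS (0.17 and 0.25), NARS (0.20 and 0.25) and SLC38A2 (0.16 and 0.17) passed the threshold. The same 3 passed with DESeq2 size factors (0.19 for CARS, 0.20 for NARS and 0.14 for SLC38A2), with DESeq2, without the filter and on RPKM with either pseudocount, and CHAC1 passed on RPKM with a pseudocount of 1 (0.34, adjusted p = 0.0269). Groups of 2 libraries allow no test for a single outlying library.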

How the results depend on the processing

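Against the TMM-scaled fit, the median difference between lines over all genes moved by 0.10 with DESeq2 size factors and by 0.12 without the filter or on RPKM, settings that also change the genes tested or the test. The split of all genes called was 5413 higher and 3581 lower in KG1A, against 4085 and 4202 on RPKM with a pseudocount of 1 and 4032 and 4026 with 0.1. For the difference it was 3230 and 4843, against 4021 and 3898 with DESeq2 size factors, 4077 and 3490 without the filter and 5262 and 4204 on RPKM with a pseudocount of 1. For the 33 genes in U937 it was 14 and 14, against 17 and 11 with DESeq2 size factors and 16 and 9 with DESeq2. For the difference it was 8 and 17, against 11 and 15 with DESeq2 size factors, without the filter or with DESeq2, and 12 and 15 on RPKM with a pseudocount of 1. DESeq2 called 3 genes lower in KG1A and RPKM with a pseudocount of 0.1 called 15 higher there. With each library left out in turn, genes higher and lower numbered 18 to 24 and 4 to 5 in KG1A, 13 to 15 and 11 to 14 in U937, and 7 to 11 and 14 to 17 for the difference.

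Across all settings tried, 15 of 24 higher and 2 of 5 lower calls were kept in KG1A, 13 of 14 and 9 of 14 in U937, and 7 of 8 and 14 of 17 for the difference. Several directions turned. IARS in KG1A was -0.025 with library size alone, -0.020 with its line alone, -0.028 without the filter, and -0.027 and -0.028 on RPKM with pseudocounts of 1 and 0.1. In U937, GARS was 0.0067 with DESeq2 size factors and 0.0043 with DESeq2, MARS 0.00033 with DESeq2 size factors, and SLC1A4 -0.013 and YARS -0.064 with library size alone. The difference of SLC7A11 was 0.046 with DESeq2 size factors, 0.074 without the filter, 0.056 with DESeq2, and 0.043 and 0.088 on RPKM with pseudocounts of 1 and 0.1. That of SLC7A1 was 0.073, 0.10, 0.072, 0.11 and 0.10 in the same order, and that of YARS 0.012 without the filter and 0.011 on RPKM with either pseudocount. With a library left out, ranges that crossed 0 were, in KG1A, -0.00048 to 0.49 for DDIT3, -0.027 to 0.050 for IARS and -0.077 to 0.052 for SARS. In U937 they were -0.44 to 0.080 for CHAC1, -0.0024 to 0.31 for SLC7A11, -0.022 to 0.091 for YARS, -0.13 to 0.0047 for ASNS and -0.11 to 0.0020 for GARS. For the difference they were -0.20 to 0.13 for SLC7A11, -0.087 to 0.14 for SLC7A1, -0.097 to 0.25 for TRIB3, -0.069 to 0.45 for CHAC1 and -0.15 to 0.031 for YARS. The cause was not tested.

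In the labels, a number alone links same-numbered libraries. Their replicate deviations in dG and PBS correlated at -0.15 in KG1A and 0.02 in U937 over 11491 genes. These values cannot show whether the libraries were made as pairs. With the replicate block, genes higher and lower were 23 and 5 in KG1A, 14 and 13 in U937 and 7 and 16 for the difference. With numbers crossed in KG1A, chosen after seeing the data, they were 24 and 5, 14 and 14, and 8 and 17.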

Other observations

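Outside the 33 genes, the 15 other enzymes of serine, glycine and folate metabolism had 3 higher and 9 lower in U937 dG, at a median log2 fold change of -0.54, and 5 higher and 6 lower in KG1A dG, at a median of -0.15. Genes near 0 in a line were kept. AMT, called higher, and GCSH, called lower, had at most 0.517 and 0.596 CPM in any U937 library. In U937 the folate enzyme genes MTHFD1L and MTHFD1 changed by -1.63 ± 0.05 and -1.32 ± 0.04. In KG1A GLDC, a part of the glycine cleavage system, had 6.18 and 7.22 CPM in dG against 1.43 and 1.47 CPM in PBS, a change of 2.20 ± 0.17.

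Of 23 other amino acid transporter genes, 14 were tested. U937 had 5 higher and 4 lower, at a median log2 fold change of 0.05, and KG1A had 1 higher and 6 lower, at a median of -0.21. Genes near 0 in a line were kept here too, such as SLC38A5 in U937 (at most 0.125 CPM) and SLC1A3 in KG1A (at most 0.0342 CPM). SLC7A8, a carrier of neutral amino acids that also pairs with the SLC3A2 chain, had 17.8 and 15.7 CPM in U937 dG against 6.65 and 5.90 CPM in U937 PBS, a change of 1.41 ± 0.11. SLC16A10, a carrier of aromatic amino acids, changed by -1.16 ± 0.10 in U937. In KG1A SLC36A1 changed by -1.01 ± 0.15 and SLC38A5 by -0.76 ± 0.05.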
